A study of Homo sapiens with 2 samples.

Results

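Solute carrier (SLC) genes encode membrane proteins that move amino acids, sugars, ions, metals, vitamins and metabolites across the plasma membrane and the membranes of organelles. They were taken here as all gene names beginning with SLC and a number, with the longest transcript listing kept for each name and a mean input coverage, in the scaled units of the table, of 1 or more. That left 135 of the 386 SLC names in the table, among 10756 genes of 47352 that reached the same input level and are called measured below. Of the 135, 129 encode members of a carrier family. The other 6 carry the prefix only: the transcription factor gene SLC2A4RG, the scaffold gene SLC9A3R1, SLC4A1AP, SLC7A6OS and the transcribed pseudogenes SLC7A5P1 and SLC7A5P2. They were set apart after the names had been seen. The input level chose the members, so input levels are given as description. Members just inside the minimum included SLC22A18 at an input of 1.05 and SLC22A23 at 1.05. The nearest names below it were SLC46A3 at 0.975, SLC25A52 at 0.974 and SLC2A14 at 0.961.

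The study mapped N6-methyladenosine (m6A) in RNA of GM12878, a human B lymphoblastoid line immortalised with Epstein-Barr virus and grown without any further treatment in RPMI with 15% serum. Fragments of total RNA recovered with an antibody to m6A (the IP) were sequenced beside unselected fragments (the input), as strand-specific dUTP libraries, with 1 library of each kind. Both groups share the same untreated line, so the contrast is antibody recovery against input and not a treatment. With a lone library on each side nothing can be tested against replicate spread, so the text holds neither p-values nor SDs. The source label names mouse embryonic stem cells, whereas the organism and cell line labels name human GM12878. In the input all 10 B cell markers examined were measured, from 3.004 for EBF1 to 775 for CD74, and the 10 summed to 1059. None of 8 pluripotency markers was measured, the highest being SOX2 at 0.153, and the 8 summed to 0.349. Of T cell and myeloid markers, CD3E stood at 1.52 and ITGAM at 1.12, the other 7 were below 1, and CD3D was at 0. None of 4 fibroblast and none of 4 erythroid markers was measured, with COL1A1 the highest at 0.929 and HBB at 0.

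m6A is written onto adenosines of messenger RNA by a methyltransferase complex built around METTL3 and METTL14, is removed by demethylases and is read by proteins such as those of the YTH family, which influence the stability and translation of the transcript. In mammalian messenger RNA it is found mostly near stop codons, in 3' untranslated regions and in long internal exons. Lymphoid cells that grow depend on carriers for amino acids, glucose and lactate, and on mitochondrial carriers for exchange between mitochondria and cytosol.

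Exons were divided into overlapping windows of 100 nt, 1 every 50 nt, and coverage was given for each. The window score is a log2 value: IP coverage over its median across the gene, divided by input coverage over its own gene median, with 1 added to each number. It measures how far a window stands above its own transcript, and an enrichment shared by a whole transcript is divided out. A window at a score of 2 or more (4-fold) is called enriched, a run of at least 2 such windows is called a region, and its highest window is its peak. The gene-level score is the highest mean of 2 consecutive windows. Peak coverages are given at the highest-scoring window of a gene. Intervals on shares and ratios are exact 95% intervals and cover counting error only. Those on shares treat genes, regions or windows as independent draws, although all come from the same 2 libraries. A single isolated read was worth 0.0634 of input coverage or 0.0996 of IP coverage, and approximately 50.3 M input and 56.9 M IP reads lay on the kept listings.

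Of the 135 genes, 88 (65.2%, interval 56.5% to 73.2%) carried at least 1 enriched region, where 44.2% of all measured genes did. The 129 true carriers gave 87 of these (67.4%), and the 6 prefix-only names gave 1. The median gene-level score was 2.72, with quartiles of 1.86 and 3.82, against a median of 1.81 and quartiles of 0.99 and 3.16 over all measured genes. A single region was found in 58 genes. A second region was present in 30 (22.2%, interval 15.5% to 30.2%), and that interval includes the 15.9% of all measured genes. At least 3 were present in 8 (5.93%, interval 2.59% to 11.3%, against 5.72%), so the share with many regions lay at the background. A gene-level score of 4 or more, was reached by 28 (20.7%, interval 14.2% to 28.6%, against 13.1%). Of all windows on these transcripts, 756 of 10232 (7.39%) were enriched, against 5.75%. The solute carrier transcripts held 0.853% of the input coverage and 1.21% of the IP coverage. Below the input minimum, 28 of 251 SLC names had an enriched region (11.2%, interval 7.54% to 15.7%), against 5.17% of all 36501 gene names below it that had at least 2 windows. Input levels within that range were not matched. These shares are a description of 2 libraries, and membership was chosen with earlier results of these data known.

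**Figure D1:**
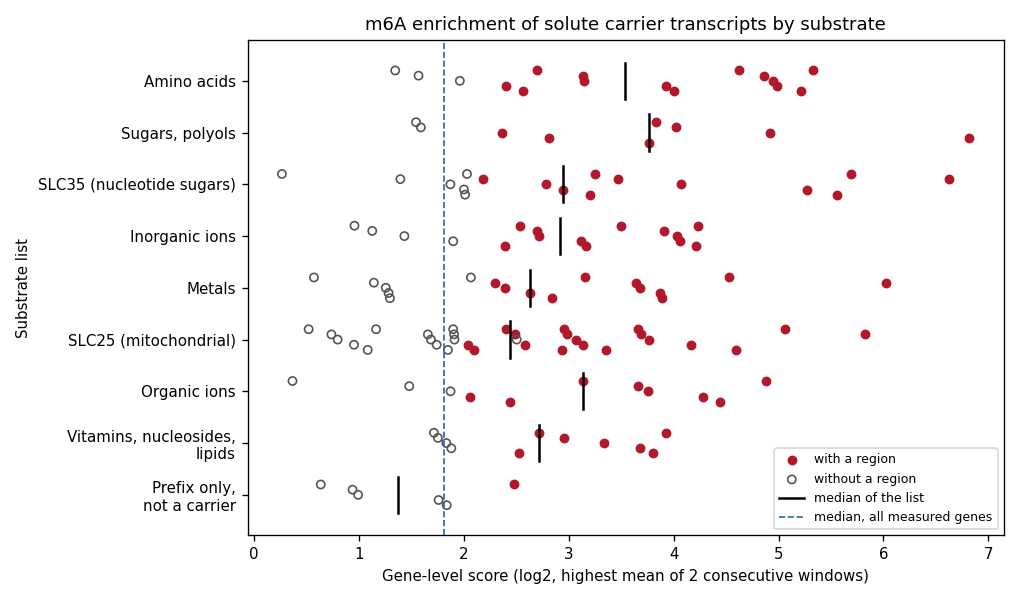
Gene-level score (log2, x axis) of each of the 135 solute carrier genes, in rows by substrate; filled points carry an enriched region, open points do not, black bars are list medians and the dashed line is the median of all measured genes at 1.81. The list medians run from 1.38 for prefix-only names to 3.76 for sugars and polyols, and SLC5A3 at 6.82 and SLC35E1 at 6.62 are the 2 highest points.

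Amino acid carriers of the families SLC1, SLC3, SLC6, SLC7, SLC38 and SLC43 gave 13 genes with a region of 16 measured (59 names). That share was 81.3% (interval 54.4% to 96.0%), against 44.2% of all measured genes, and the median score was 3.53. Every measured member of SLC1, SLC3, SLC7 and SLC43 had one. SLC7A5, the transporter of large neutral amino acids that pairs with the SLC3A2 heavy chain, had an IP coverage of 792 and an input of 10.2 at its highest-scoring window, a ratio of 77.6 (66.4 to 91.3) and a gene-level score of 5.33. It lay in a region of 9 windows 1950 nt into the last exon, and a second region at 550 nt had an IP of 212 and an input of 21.5. SLC3A2, its partner, was far less enriched over its own transcript: IP 94.1 and input 17.0 at the peak, a score of 2.57, with 2 regions of 3 windows each in a short last exon of 12 windows. The 2 subunits of this heterodimer thus both carried regions, at ratios of 77.6 and 5.53 (4.83 to 6.36). These ratios are not divided by gene medians, whose log2 IP over input with 1 added was 0.67 for SLC7A5 and -0.26 for SLC3A2. Their intervals cover neither the choice of the highest-scoring window nor replicate spread, so the difference was not tested.

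The other light chains that pair with SLC3A2 had lower scores than SLC7A5. SLC7A6 reached an IP of 47.5 over an input of 3.90 and a score of 3.13 with 3 regions, although it overlaps SLC7A6OS in RefSeq and reads of the 2 genes may not be separable. SLC7A7 had its peak in an internal exon, with an IP of 162 and an input of 12.7 (score 3.14). SLC7A1, the carrier of arginine and lysine, which needs no heavy chain, reached an IP of 428 over an input of 10.2, with a score of 4.99 over a region of 14 windows. Both pseudogenes of SLC7A5 lacked a region, SLC7A5P2 at 0.99 and SLC7A5P1 at 0.64, and reads that fit several copies may have been split among them.

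Among the SLC1 family, SLC1A4, an exchanger of alanine, serine and cysteine, reached an IP of 449 over an input of 12.6 (score 4.86), 350 nt into its last exon. SLC1A1, a glutamate and cysteine carrier, reached 119 over 4.54 (score 4.62). SLC1A5, the glutamine exchanger, had a mean input of 18.1 and differed in place: its highest region of 12 windows lay in the first exon, with an IP of 141 over an input of 6.995 (score 3.92), and a second region in the last exon had 141 over 20.95. SLC38A10 had a region of 21 windows with a peak IP of 217 over an input of 2.73 (score 5.21), and SLC43A2, which exports large neutral amino acids, one of 16 windows with 65.3 over 1.68 (score 4.94). SLC43A3, listed by family but known as a purine nucleobase carrier, reached 229.6 over 28.7 (score 2.69). The lowest of the list were SLC6A6, the taurine transporter, at 1.57, and SLC38A5, a glutamine carrier, at 1.35, both without a region.

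**Figure D2:**
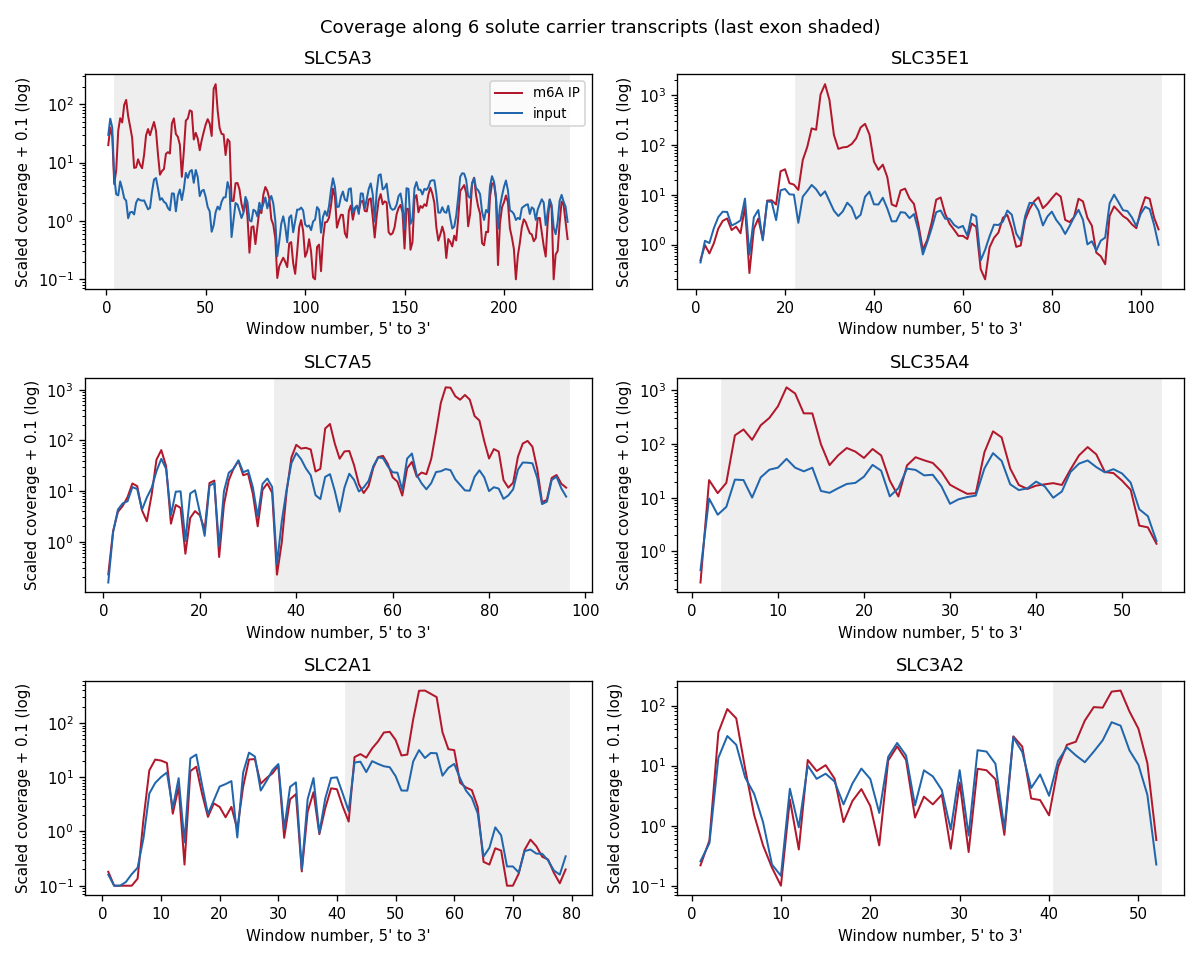
Scaled coverage plus 0.1 (log axis) of the m6A IP (red) and the input (blue) in windows from 5' to 3' along 6 solute carrier transcripts, with the last exon shaded. At the highest-scoring window, which lies in the last exon, the IP stands above the input by 145 in SLC35E1, 77.6 in SLC7A5 and 5.53 in SLC3A2. Elsewhere in the last exon it falls to near or below the input in places.

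Sugar and polyol carriers gave 7 genes with a region of 9 measured (77.8%, 31 names), against 44.2% of all measured genes, and a median of 3.76. All 5 measured members of the glucose transporter family SLC2 had a region. SLC2A1, the basal glucose transporter, reached an IP of 397 over an input of 22.6 (ratio 17.6, interval 15.8 to 19.6, score 4.03), 650 nt into its last exon. SLC2A6 scored highest of the family with 247 over 6.35 (score 4.91). SLC2A3, the high-affinity glucose transporter, reached 90.6 over 5.10 (score 3.83), and its near-identical copy SLC2A14 had a score of 3.52 at an input of 0.961, so the reads of the pair may be shared. SLC2A5, a fructose carrier, reached 70.9 over 9.72 (score 2.82), and SLC2A8 reached 11.9 over 2.40 (score 2.36). With the first listing of the gene, SLC2A5 had a score of 1.12 and no region, and SLC2A8 lost its region with 5 added in place of 1 (1.33) and without the division by gene medians (1.92). The order within the family was thus SLC2A6, SLC2A1, SLC2A3, SLC2A5 and SLC2A8, on the longest listings, and the order has no replicate check.

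SLC5A3, which takes up myo-inositol with sodium, had the highest score of all 135, at 6.82. Its IP reached 184 over an input of 0.745, a ratio of 246 with a wide interval of 138 to 468, since the input at that window equals approximately 12 reads. It carried 4 regions of 9, 7, 8 and 24 windows with peaks at 250, 800, 1450 and 2450 nt of a last exon of 228 windows. All 49 enriched windows lay in the first 3000 nt of that exon, where median IP was 29.4 over a median input of 2.33 in 60 windows. In the remaining 168 windows median IP was 0.891 over 1.67, and 0 windows were enriched. The enrichment of IP over input in this transcript thus lay in the 5' part of its last exon. The 4 windows of the first exon had a median IP of 24.1 over a median input of 34.9, and 0 were enriched. The input median was 1.85 in the last exon, and RefSeq places MRPS6 over the same locus. Reads of the 2 genes may not be separable there. SLC45A3 had its region in an internal exon (62.7 over 3.20, score 3.76). SLC50A1 at 1.59 and SLC5A6, a vitamin transporter that is listed here by family, at 1.54 had none.

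SLC35 carriers bring nucleotide sugars and related compounds into the Golgi apparatus and endoplasmic reticulum, where glycans are built. Of 17 measured (30 names), 11 had a region (64.7%, interval 38.3% to 85.8%). The interval includes the 44.2% of all measured genes. The median was 2.95, with the widest spread of the lists, from 0.27 to 6.62. SLC35E1 reached an IP of 1684 over an input of 11.7, the highest IP of any of the 135 at its peak, with a ratio of 145 (125 to 168) and a score of 6.62 in a single region of 17 windows peaking 300 nt into the last exon. SLC35E2B reached 699 over 7.73 (score 5.69). Its near-identical copy SLC35E2 had no region (16.1 over 2.80, score 2.001), and reads that fit both may have been assigned to either. SLC35A5 reached 165 over 3.13 (score 5.56) in its internal exon 6, at a locus that overlaps ATG3. SLC35B4, a carrier of UDP-xylose and UDP-N-acetylglucosamine, reached 169 over 3.53 (score 5.27).

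SLC35A4 was the most abundant SLC35 transcript, with a mean input of 22.9, and reached an IP of 873 over an input of 36.2 (score 3.47). Its gene medians of IP stood above those of input by 1.01 on the log2 scale with 1 added, a part of its enrichment that the score removes. SLC35C2 had its region in an internal exon (252 over 10.5, score 4.07). SLC35C1, the GDP-fucose transporter of the Golgi, had no region at a score of 2.01 and a gene-wide log2 value of 1.01, and without the division by gene medians its score was 3.02, with a region. SLC35D1, at 2.03, also had 2 consecutive windows averaging just over the threshold without both passing it. SLC35B2, which carries the sulfate donor into the Golgi, stood at 1.39, with 17.7 over 3.88. SLC35B1 was the lowest of all 135 at 0.27, with 3.87 over 2.80.

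Carriers of inorganic ions gave 12 of 16 measured (57 names) with a region and a median of 2.91. That share was 75% (interval 47.6% to 92.7%), against 44.2% of all measured genes. Their median transcript was long, at 105.5 windows, and 72.6% of all measured genes with 88 to 499 windows had a region. All 6 measured members of SLC12 had one. This family, taken here by number, holds the cation-chloride cotransporters that set cell volume and chloride. With 5 added in place of 1, SLC12A2 (1.89) and SLC12A9 (1.51) lost theirs. SLC12A7, a potassium-chloride cotransporter, reached 133 over 5.60 (score 4.23) with 3 regions. SLC12A8 reached 244 over 24.6 (score 3.11) with 3 regions, 1 of them in an internal exon. SLC12A2, the sodium-potassium-chloride cotransporter that brings chloride in, differed from SLC12A7 and SLC12A8 in place, with both of its regions in the first exon (18.9 over 1.64, score 3.16).

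Of the 5 measured sodium-proton exchangers of SLC9, 4 had a region. SLC9A7, an exchanger of the Golgi, carried 4, at 400, 750, 5800 and 7050 nt of a last exon of 160 windows, with 54.05 over 2.76 at the highest (score 4.21). SLC9B2, a more distant relative, had its region in the first exon (17.6 over 1.999, score 2.70), which it lost with 5 added (1.72). SLC20A1, a phosphate transporter, had one in an internal exon (43.4 over 6.84, score 2.72). SLC26A6, an anion exchanger, at 1.13, and SLC4A7, a bicarbonate cotransporter, at 0.96 had none.

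Metal carriers gave 11 of 17 measured (32 names) with a region and a median of 2.64. That share was 64.7% (interval 38.3% to 85.8%), and the interval includes the 44.2% of all measured genes. SLC39A14, which imports zinc, iron and manganese, reached 463 over 7.83 (ratio 59.0, interval 49.2 to 70.9, score 6.02). That region lies in the longest of its 4 listings, and with the first listing of the gene the score was 0.74 and there was no region. SLC30A6, a zinc carrier of the Golgi, reached 67.9 over 2.004 (score 4.52), and SLC30A1, the zinc exporter of the plasma membrane, 178 over 5.04 (score 3.87). SLC39A9 had a region of 12 windows in its first exon (194 over 18.2, score 3.89), which also was absent from the first listing, where the score was 1.91.

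SLC39A6 and SLC39A10, closely related zinc importers that can form a complex, shared the place of their regions. Each had 2 regions, and all 4 lay in exon 2, an internal exon of 16 windows in SLC39A6 and 21 in SLC39A10. SLC39A6 reached 76.6 over 7.94 (score 3.68) at 600 nt into that exon, and SLC39A10 reached 32.1 over 4.12 (score 2.64) at 600 nt as well. SLC39A7, which releases zinc from the endoplasmic reticulum, had its region in the first exon (45.8 over 5.46, score 2.39). With 5 added, SLC39A10 (1.92) and SLC39A7 (2.02, without 2 passing windows in a row) had no region. SLC30A7 at 1.14, with 2.31 over 0.999, and SLC39A13 at 0.57, with 2.58 over 1.63, had none. By family, 6 of 10 measured SLC39 genes and 4 of 5 measured SLC30 genes had a region, against the 44.2% of all measured genes.

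Mitochondrial carriers of SLC25, which exchange metabolites across the inner membrane, were the largest family, with 32 measured of 48 names. A region was found in 18 (56.3%, interval 37.7% to 73.6%), against 70 of the 103 other members (68.0%, interval 58.0% to 76.8%). The intervals overlap. The median score was 2.44, against 2.82 for the others, and the median transcript had 50 windows, against 70. SLC25A36, a pyrimidine nucleotide carrier, led the family with 616 over 13.4 (ratio 46.0, interval 40.1 to 53.1, score 5.82) in 14 windows peaking 200 nt into its last exon. SLC25A30 reached 99.1 over 2.02 (score 5.06), SLC25A25, an exchanger of ATP-magnesium and phosphate, 85.4 over 2.49 (score 4.60) with 3 regions, and SLC25A43 35.3 over 1.12 (score 4.17). SLC25A44, a carrier of branched-chain amino acids, had 3 regions with 93.2 over 8.21 at the highest (score 3.07).

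The most abundant mitochondrial carriers had no region. SLC25A6 and SLC25A5, which encode exchangers of ADP and ATP, had mean inputs of 158.6 and 62.1 and scores of 1.91 and 0.95. SLC25A6 had 607 in the IP over 162 in the input at its highest-scoring window (ratio 3.75, interval 3.58 to 3.93). That window scored 2.11, and no neighbouring window passed the threshold, so it formed no region. SLC25A5 had 129 over 103 (ratio 1.25, interval 1.16 to 1.35). SLC25A3, the phosphate carrier, stood at 53.9 in input with a score of 1.66 (175 over 54.2), and SLC25A23 at 23.5 with 1.69 (211 over 45.2). SLC25A39, a glutathione carrier with an input of 20.7, had a single enriched window and no region (score 2.50, 17.6 over 0.233). At a mean input of 10 or more, 0 of 6 SLC25 members and 7 of 11 other members had a region, against 25.4% of all measured genes at that level. Without the division by gene medians SLC25A23 had one, at a score of 2.19. The median transcript of the 6 had 37 windows, of the 11 others 54 and of all measured genes at that level 36. At inputs of 3.75 to 8.07, 10 of 11 SLC25 members and 24 of 32 others had a region, against 46.9% of all measured genes. SLC25A4 (12.0 over 7.02, score 0.74) and SLC25A10, the dicarboxylate carrier (11.1 over 6.52, score 0.52), were the lowest of the family at lower inputs of 1.90 and 4.96. SLC25A4, SLC25A5 and SLC25A6 are near-copies of each other, and how reads that fit several of them were counted is not given in the sources used here.

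**Figure D3:**
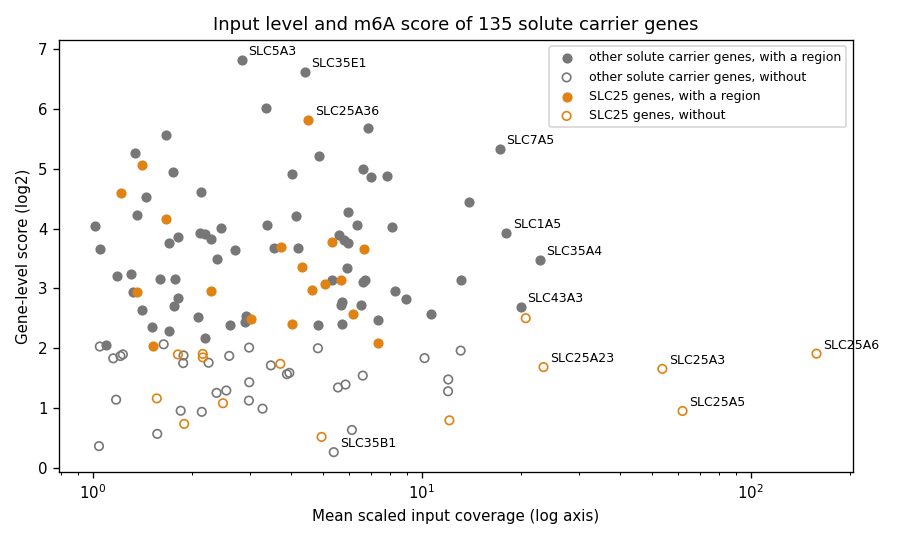
Mean scaled input coverage (log axis, x) against gene-level score (log2, y) for the 135 solute carrier genes; orange marks SLC25 genes, filled points carry an enriched region. The SLC25 points at the right, from SLC25A23 at 23.5 to SLC25A6 at 158.6, are open and lie below 2, whereas SLC35A4 at 22.9 and SLC43A3 at 20.04 are filled.

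Carriers of organic anions and cations, peptides and monocarboxylates gave 8 of 11 measured (72 names) with a region and a median of 3.14. That share was 72.7% (interval 39.0% to 94.0%), and the interval includes the 44.2% of all measured genes. SLC15A4, which moves histidine and peptides out of endolysosomes and takes part in Toll-like receptor signalling of B cells, reached 465 over 16.5 (score 4.88). SLC17A9, a vesicular carrier of nucleotides, reached 609.7 over 28.9 (score 4.44). SLC16A1, which carries lactate and pyruvate, reached 290.1 over 14.8 (score 4.28) in an internal exon, with a second region in its longer terminal exon. SLC23A2, a vitamin C transporter, reached 79.7 over 4.66 (score 3.76). SLC22A23 had 3 regions, with 37.9 over 0.625 at the highest (score 3.66), where the input equals few reads and the ratio of 60.6 has an interval of 32.1 to 126. SLC10A7 had its region in the first exon at a score of 2.06. SLC15A3, the near relative of SLC15A4, stood at 1.48 (10.3 over 3.89) and SLC22A18 at 0.37, both without a region.

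Carriers of vitamins, nucleosides, lipids and related compounds gave 7 of 11 measured (33 names) with a region and a median of 2.72. That share was 63.6% (interval 30.8% to 89.1%), and the interval includes the 44.2% of all measured genes. SLC33A1, which brings acetyl-CoA into the endoplasmic reticulum, had a region of 14 windows in its first exon (81.4 over 2.74, score 3.92). SLC44A2, a choline transporter, reached 304 over 20.4 (score 3.80), SLC37A1 150.0 over 9.30 (score 3.68), and SLC19A1, the reduced folate carrier, 252 over 19.8 (score 3.34). SLC29A2, a nucleoside transporter, at 1.75, and SLC37A4, the glucose-6-phosphate transporter of the endoplasmic reticulum, at 1.71, had none. Of the prefix-only names, SLC2A4RG had a region at a score of 2.48 (27.9 over 4.08). It lost that region with 5 added (1.81). The other 5 had none: SLC9A3R1 at 1.84, SLC4A1AP at 1.76, SLC7A6OS at 0.94 and the pseudogenes given above. Nearest to the threshold with a region were SLC25A15, the ornithine carrier, at 2.04, SLC10A7 at 2.06 and SLC25A11, the oxoglutarate carrier, at 2.09. All 3 lost their region with 5 added and without the division by gene medians.

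Transcript length moved with the score. Members with a region had a median of 74 windows and those without one 52, and the median member had 67 windows, against 55 over all measured genes. Spearman's rho between score and window number was 0.40 over the 135 genes, and 0.60 over all 10756; these are correlations across genes that share the same 2 libraries, and a longer listing offers more windows for a maximum. All measured genes were divided by window number into 4 groups of equal size. The shares of solute carrier genes with a region were 53.7% (22 of 41) at 32 to 55 windows against 36.9%, 72.0% (36 of 50) at 55 to 88 windows against 56.1%, and 76.9% (30 of 39) above that against 72.6%. In the shortest group, 2 to 32 windows, 0 of 5 had one, against 11.3%. The shares of all measured genes, applied group by group, would give 72.0 of the 135 genes rather than 88. For SLC25 and the other members the counts were 9 of 16 and 13 of 25 at 32 to 55 windows, 7 of 11 and 29 of 39 at 55 to 88 windows, and 2 of 3 and 28 of 36 above that. The part of transcript length in the difference between them was not tested. Median windows per transcript were 86.5 for the amino acid list, 71 for sugars and polyols, 55 for SLC35 and 105.5 for inorganic ions. For metals they were 77, for organic ions 56, and for vitamins, nucleosides and lipids 61. The part of length in the shares of these lists was not tested.

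**Figure D4:**
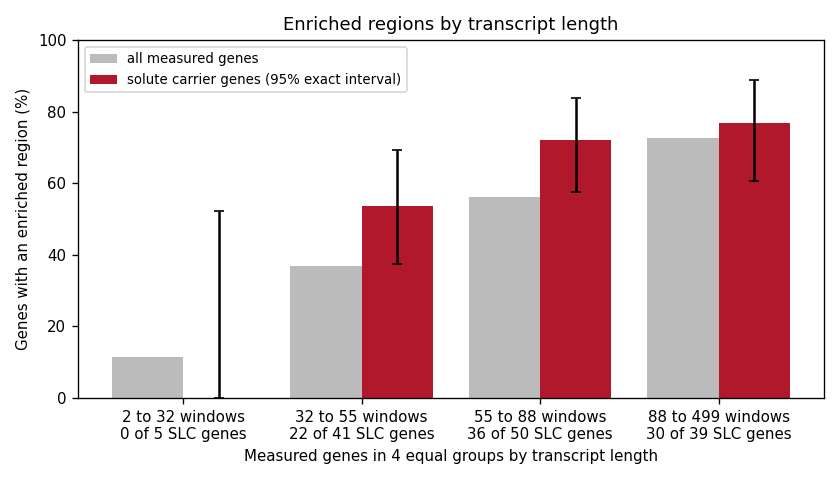
Percent of genes with an enriched region (y axis, from 0) in 4 equal groups of all measured genes by number of windows; grey bars are all measured genes, red bars solute carrier genes with exact 95% intervals. The red bar exceeds the grey one by most at 32 to 55 windows (53.7% against 36.9%) and at 55 to 88 windows (72.0% against 56.1%), and the intervals of the longest and shortest groups include the grey value.

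Input level went with the score less than length did (rho 0.02 over the 135 genes, -0.15 over all measured genes). In 4 equal groups by input, 25 of 39 members had a region in the lowest (64.1%, interval 47.2% to 78.8%, against 48.1%). In the next 19 of 33 did (57.6%, interval 39.2% to 74.5%, against 53.4%). In the third 34 of 43 did (79.1%, interval 64.0% to 90.0%, against 46.9%), and in the highest 10 of 20 (50%, interval 27.2% to 72.8%, against 28.4%). Only the interval of the third group excludes the share of all measured genes. For SLC25 and the other members the counts were 5 of 8 and 20 of 31 in the lowest group. In the next they were 3 of 7 and 16 of 26. In the third they were 10 of 11 and 24 of 32, and in the highest 0 of 6 and 10 of 14. The shares of all measured genes, group by group, would give 62.2 of 135. The score also holds input in its denominator, so the 2 quantities are not independent.

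The 128 regions lay mostly in long terminal exons. Peaks fell in the longer terminal exon in 105 (82.0%, interval 74.3% to 88.3%), against 66.8% of peaks over all measured genes. They fell in internal exons in 12 (9.38%, interval 4.94% to 15.8%, against 24.7%). The shorter terminal exon held 11 (8.59%, interval 4.37% to 14.9%, against 5.63%). With the strand from RefSeq, 110 peaks could be placed from 5' to 3'. Of these, 88 lay in the last exon (80.0%, interval 71.3% to 87.0%, against 66.6%). Internal exons held 10 (9.09%, interval 4.45% to 16.1%, against 25.1%). First exons held 12 (10.9%, interval 5.77% to 18.3%), and that interval includes the 5.81% of all measured genes. SLC4A2 gave 2 of these 12, at inputs of 0.430 and 0.123. The last exon held 53.3% of the windows of these transcripts, internal exons 36.3% and first exons 10.4%. Over all measured genes these were 45.5%, 44.2% and 8.85%, so the 2 sets also differ in exon structure. Among the 74 genes with a region and a known strand, the highest peak lay in the last exon in 60, in the first in 8 and in an internal exon in 6.

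Within the last exon the peak lay at a median of 450 nt from its 5' edge (quartiles 287.5 and 800.0 nt), against 400.0 nt (250 and 850 nt) over all measured genes. It was within 500 nt in 50 of 88 (56.8%, against 56.0%) and at 1000 nt or beyond in 17 (19.3%, against 22.2%). Windows were also counted by distance, in genes with and without a region, and 65.2% of members against 44.2% of all measured genes had one. The part of that difference in the shares by distance was not tested. The share of enriched windows was highest between 250 and 500 nt, at 31.3% against 22.1%. It was 18.6% against 13.6% at 500 to 750 nt and 15.1% against 12.4% in the first 250 nt. From 1000 to 1500 nt it was 2.93% against 5.76%. At 2000 to 3000 nt it was 6.47%, against 2.91%, and without SLC5A3 it was 3.44%, so that gene set the higher value there. The peaks had a median IP of 63.2 over a median input of 4.10, close to the 61.3 and 4.20 of all measured genes, and a median length of 5 windows (2 to 24), against 4.

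**Figure D5:**
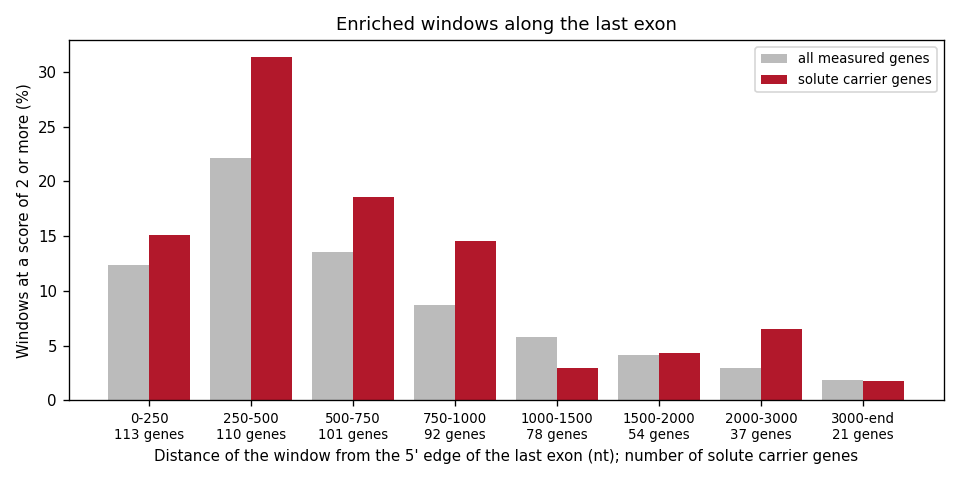
Percent of windows at a score of 2 or more (y axis, from 0) by distance of the window from the 5' edge of the last exon, for solute carrier genes (red) and all measured genes (grey); the number of solute carrier genes reaching each bin stands under it. Genes with and without an enriched region are included. Both sets are highest at 250 to 500 nt (31.3% and 22.1%), and the red bar at 2000 to 3000 nt (6.47%) falls to 3.44% without SLC5A3.

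Other transport genes, taken as lists of names, are given for reference. Of 18 measured ABC transporters, 11 had a region (61.1%, median score 2.50), and of 26 measured ion pumps of the P-type and vacuolar kinds, 7 had one (26.9%, median 1.33). Of 29 measured partners and regulators of carriers, 17 had one (58.6%, median 2.75). Beside these stand 44.2% of all measured genes, 36.9% of those with 32 to 55 windows and 56.1% of those with 55 to 88. The kinases WNK1 and OXSR1, of which the first activates the other and the other phosphorylates the SLC12 cotransporters, had scores of 5.57 with 5 regions and 5.73 with 1, and BSG, the chaperone of SLC16A1, had a score of 1.35 and no region. These 3 were picked from the list for their known link to members described above, after their values had been seen. The median transcripts had 83 windows in the ABC transporters, 59 in the ion pumps and 88 in the partners and regulators.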

How the data were processed

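m6A-IP and input RNA of GM12878 were measured, 1 library each. Per the submitters' processing notes, the tool list holds TopHat 1.1.3 and the build list hg19. What computed coverage, on which annotation and with which use of strand, is not given in the sources used here. Per window, the deposited table gives, per the file headers, a coverage signal scaled by the authors, medians per gene, and a log2 score, which was recomputed within 1.67e-14. In each library all coverage values above 0 were whole multiples of that library's step (0.00171 in the input, 0.00269 in the IP) within 0.01 step, from which read numbers were derived. Windows of 100 nt every 50 nt were inferred from isolated reads. A sample's depth is approximate, and PCR copies are not independent.

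Regions, gene-level scores and exact intervals (Clopper-Pearson for shares, conditional binomial for ratios) were computed in scipy 1.17.1, pandas 2.3.3 and numpy 2.4.6 under Python 3.11.15, with figures in matplotlib 3.10.9. Windows ran in genome order; the strand of 113 members came from RefSeq (GRCh38.p14, used for symbols, strand and overlap of genes), a step chosen after seeing the data. RefSeq matched 134 symbols, 4 through older names. Calling of regions was run on simulated coverage in which each window was drawn independently. Real windows overlap and share reads, so that run does not measure the error of the calls reported here. The members and lists were chosen with earlier results of these data known. Named were, per substrate list, the 4 highest and 2 lowest scores; the 20 highest scores; the 10 highest inputs; members with 3 or more regions or a peak outside the longer terminal exon; those nearest each threshold; and measured SLC1, SLC2, SLC3 and SLC7 members. Some genes the rule names are left out here, and SLC4A2 was added after its values had been seen. Alternatives varied threshold, run length, added constant, centring, listing and input minimum. The values along the last exon without SLC5A3 were added after seeing the data. No test was made, with 1 library per group.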

Additional observations from a re-analysis of the deposited data

How the results depend on the processing

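No paired analysis was possible because each group holds 1 library and no test was made. At a threshold of 3, 55 solute carrier genes had a region, 10 of them in SLC25 and 45 outside it, while 26.01% of all measured genes did. With an input minimum of 5, 34 of 49 genes had one, 6 in SLC25 and 28 outside it, against 34.1%. With 5 added to each number, the median score was 2.12, and without an input minimum, over all 386 names, it was 0.94, with 116 of 386 names carrying a region (30.1%, against 14.1% of all gene names with at least 2 windows). Counts stayed within 1.5 times of 88 under the other settings: 123 at a threshold of 1 (against 71.4%), 66 with runs of 4 windows (31.0%), 102 with 0.1 added (51.8%), 68 with 5 added (33.9%), 84 of 135 with the first listing of each gene (62.2%, against 43.1%), 88 with gene medians over the kept listing, and 88 without the division by gene medians (45.5%). Those last 88 shared 80 genes with the 88 reported. Genes that lost their region there included SLC2A8, SLC10A7, SLC25A11 and SLC25A15, and genes that gained one included SLC35C1 and SLC25A23. Peaks in the longer terminal exon ranged from 74.8% to 87.3%. SLC35E1 stood 1st and SLC5A3 5th with 5 added (6.30 and 5.17), and 1st and 2nd without the division by gene medians (6.85 and 6.65). The 22 members without a RefSeq strand and the 76 that overlap another RefSeq gene limit the placing of peaks and the assignment of reads. Input depth limits peaks of low input: 6 of 128 peaks had an input below 1.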

Other observations

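The score divides out what a whole transcript shares, and a few solute carrier transcripts stood above input along most of their length. These genes were chosen after their values had been seen. SLC25A29, a mitochondrial carrier of basic amino acids, had gene medians of IP above input by 2.06 on the log2 scale with 1 added, the highest of the 135 genes, where the median member stood at -0.09. Its score was 1.90 with no region, and 3.95 with a region when the division by gene medians was left out; at its highest-scoring window the IP was 122 over an input of 6.42. SLC10A3 stood at 1.70, SLC39A3 at 1.41 and SLC16A13 at 1.18. SLC16A13 had no region at a score of 1.87 and had one at 3.05 without the division. SLC25A29 overlaps YY1 in RefSeq, and the strand use of the coverage is not given in the sources used here.

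Among the 28 SLC names below the input minimum that had an enriched region, some reached high scores. SLC15A2, a peptide transporter and relative of SLC15A4, had a score of 4.62 at a mean input of 0.433, SLC16A6 a score of 4.53 with 3 regions at 0.559, and SLC46A1, the proton-coupled folate transporter, 4.43 with 3 regions. SLC26A2, a sulfate transporter, had 4.16 with 3 regions at an input of 0.640. The 3 names nearest below the minimum all had 1 region, with scores of 2.09 for SLC46A3, 2.25 for SLC25A52 and 3.52 for SLC2A14. These genes other than the last 3 were chosen after their values had been seen.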
